A study of Mus musculus with 4 samples.

Results

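The glutathione genes examined here are 10 mouse genes for the synthesis, recycling, breakdown and use of glutathione. They were Gclc, Gclm, Gss, Gsr, Slc7a11, Ggt1, Gpx1, Gpx2, Gpx4 and Chac1, chosen by name from the 21887 protein-coding genes that RefSeq places on the chromosomes of assembly GRCm38.p6 (the mm10 build). For each gene, every MafG peak whose midpoint lay inside the gene or within 50 kb of it was collected, which gave 65 of the 68763 peaks in the deposited list. No peak was shared by 2 of the 10 genes.

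The peaks come from chromatin immunoprecipitation with sequencing (ChIP-seq) of livers of C57BL6/J mice. The 2 BLRP-MafG libraries are from livers treated with Ad BLRP MAFG, which overexpressed MafG carrying the BLRP tag, and the 2 control libraries are from livers treated with Ad BLRP Control. All 4 were precipitated with the same Avi-tag antibody, so tagged MafG at an overexpressed level was mapped, and the native protein was not. The labels state no age or sex of the mice and no dose or duration of treatment, and whether the libraries of a group came from separate mice is not stated. The list reports 1 BLRP-MafG and 1 control value for a peak, with no value per library, so differences between animals could not be tested and no SD can be given. Whole liver was used and the list holds no expression, so the cells behind a peak cannot be told apart and the tissue could not be checked against marker genes.

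Glutathione is a tripeptide of glutamate, cysteine and glycine that serves as the main thiol antioxidant of hepatocytes. Glutamate-cysteine ligase joins the first pair of amino acids and glutathione synthetase adds glycine. Peroxidases then oxidise glutathione while they reduce peroxides, and glutathione reductase restores it with NADPH. Small MAF proteins such as MafG pair with the CNC factor NRF2 on antioxidant response elements, and several genes of glutathione synthesis are textbook targets of that pair. Small MAF proteins have no activation domain of their own, and their dimers with one another or with BACH1 can repress.

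All 10 genes had at least 1 listed peak inside or within 50 kb, a criterion that 93.5% of all protein-coding genes met. With a flank of 10 kb the count was again 10, against 74.5% of all genes. A peak lay inside 7 of the 10 genes, against 50.5% of all genes, and longer genes held one more often. All 6 members of 20 kb or longer held one inside, against 79.7% of all genes that long, and 1 of the 4 shorter members did (Gpx1), against 25.8% of shorter genes. Within 1 kb of either end, 4 members (Gclm, Gss, Gsr and Gpx1) had a peak, against 24.5% of all genes. The split at 20 kb was chosen after the values were seen.

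The median height of these peaks was close to that of the whole list. Height is given as the normalized tag count, which is the number of BLRP-MafG tags in the peak scaled to a total of 10000000 tags. The 65 peaks ran from 5.39 to 175, with a median of 12.7 (quartiles 8.33 and 19.6), against a median of 12.3 (quartiles 7.84 and 23.5) over the whole list. Of the 65, 16 (24.6%) reached 20, against 29.7% of all peaks inside or within 50 kb of any protein-coding gene. In the authors' deposited table, the fold of these peaks over the surrounding 10 kb had a median of 8.91 (quartiles 6.66 and 16.3), against 13.9 (quartiles 7.93 and 29.4) for all peaks inside or within 50 kb of any protein-coding gene. The control held 0 tags at 28 of the 65 peaks, 1 tag at 25 and from 2 to 7 tags at the other 12. The share with 0 control tags was 43.1%, against 44.4% over the whole list. With 1 control tag or fewer it was 81.5%, against 77.4%. Every listed peak had to reach a 10-fold excess over control, which limits how high these control counts can be.

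**Figure D1:**
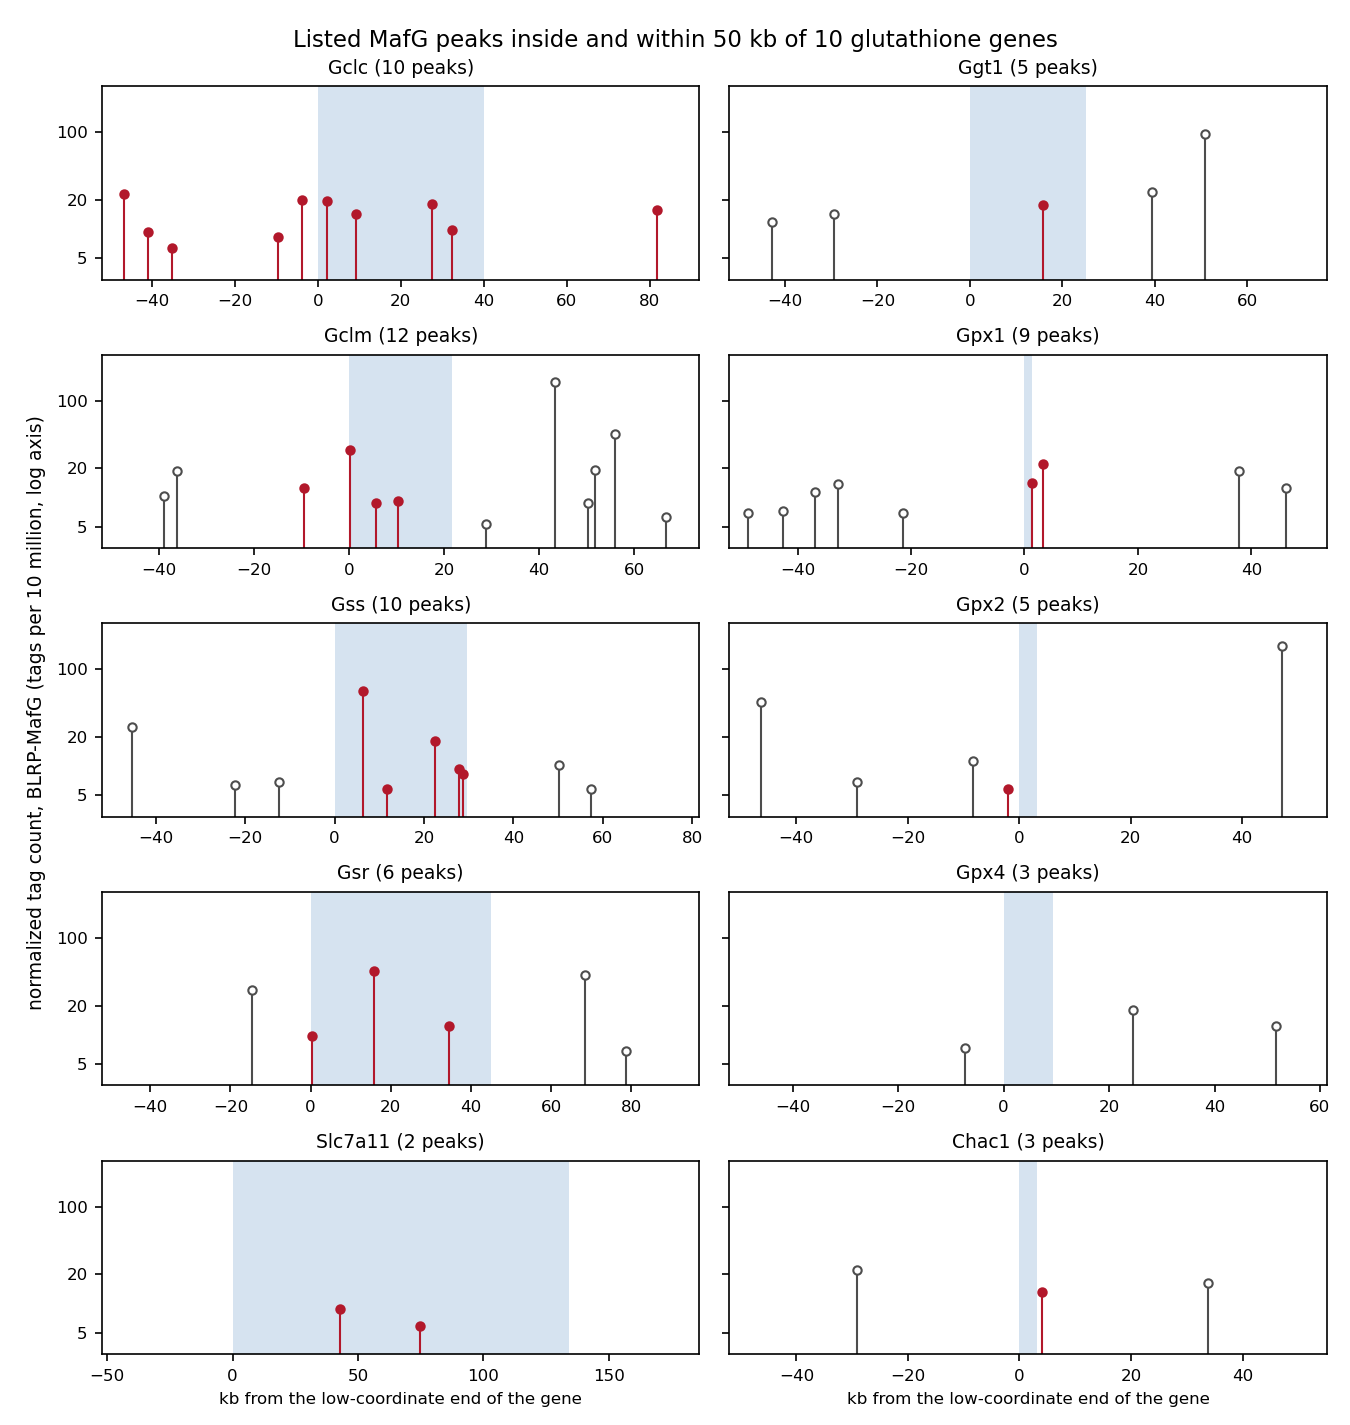
Position and height of the 65 listed MafG peaks around the 10 glutathione genes. The x axis gives the distance in kb from the low-coordinate end of each gene, the shaded band is the gene, and the log y axis gives the normalized tag count of BLRP-MafG; filled points are peaks nearest to the named gene and open points are peaks nearer to another protein-coding gene. Gclm has 12 peaks and Slc7a11 has 2, and the tallest peaks beside Gpx2, Gclm and Ggt1 are open points.

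Many of the peaks lay closer to a neighbour than to the glutathione gene. For 29 of the 65 peaks the glutathione gene was the nearest protein-coding gene, and for the other 36 another gene was nearer, with 18 of these inside that gene. The median normalized tag count was 12.7 in the 29 and 12.5 in the 36. This split was not computed for the windows of all protein-coding genes, so it cannot be called particular to these genes. The 3 tallest peaks, of 175, 156 and 96, all lay nearer to another gene (Fntb, Dnttip2 and Ggt5). Gclc was the nearest gene to all 10 of its peaks, and Slc7a11 to both of its own, whereas Gpx4 was the nearest gene to none of its 3.

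Among the synthesis genes, Gclc had a chain of peaks with a median height of 14.9, against 12.3 over the whole list. It encodes the catalytic subunit of glutamate-cysteine ligase, the rate-limiting enzyme of the pathway, and spans chr9:77754535-77794489. Its 10 peaks ran from 6.37 to 23, and 4 of them lay inside the gene. The highest stood 46720 bp outside the low-coordinate end at chr9:77707715-77707915, with 47 BLRP-MafG tags and 0 control tags. Its normalized tag count was 23 (exact 95% Poisson interval 16.9 to 30.6), 13.2-fold higher than the control when the control is set to a floor of 3 tags. With 0 control tags as counted, the exact 95% conditional binomial interval of its ratio began at 10.3. The floor was used only where the control held 0 tags. Ratios against it therefore cannot be ranked against ratios to counted control tags, here or below. A peak of 20.1 (14.4 to 27.3) lay 3774 bp outside the same end at chr9:77750661-77750861, with 41 BLRP-MafG tags and 0 control tags. It was 11.5-fold higher against that floor, and the interval of its ratio began at 8.96. One of 19.6 (14 to 26.7) lay 2278 bp inside that end at chr9:77756713-77756913, with 40 BLRP-MafG tags and 2 control tags, a ratio of 16.9 (exact 95% conditional binomial interval 4.38 to 144). The intervals of these 3 heights overlapped, so no order among them could be read. Inside the gene, the others were 18.1 (37 BLRP-MafG and 3 control tags, ratio 10.4, 3.29 to 52.7), 14.2 and 9.8. Outside it, a peak of 15.7 lay 41769 bp from the high-coordinate end, and peaks of 8.33, 6.37 and 9.31 lay 9502, 35275 and 41043 bp from the low-coordinate end. None of the 10 lay within 1 kb of either end.

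Gclm, which encodes the modifier subunit of the same ligase, carried the most peaks of the 10 genes, with 12 in its window. Scaled to the length of the window this was 9.86 peaks per 100 kb, above 99.2% of all protein-coding genes, whose median was 3.53. Gclm was the nearest protein-coding gene to 4 of the 12, and the others lay nearer to Dnttip2 or Abca4. The windows of Gss (7.71 per 100 kb) and Gclc (7.15) were also dense, above 95% and 92.5% of genes. A peak at chr3:122245549-122245749 was the only one of the 65 to touch a listed promoter of a glutathione gene, where a promoter is the RefSeq window from 250 bases before a transcription start to 50 after it. Its midpoint lay 92 bp downstream of the Gclm start at chr3:122245557. It held 63 BLRP-MafG tags and 2 control tags, a normalized tag count of 30.9 (23.7 to 39.5), with a ratio of 26.6 (7.06 to 224). The other 2 peaks inside Gclm were low, at 9.31 and 8.82, and their intervals lay below that of the start-site peak. Gclc and Gsr had no listed promoter, so their peaks could not touch one of their own. Of the 14 listed promoters of the other 8 genes, 1 was touched by a peak, against 2964 of all 32851.

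The letters at the Gclm start are shown because the peak sits on them. The RefSeq windows (build GRCm38.p6) were searched on both strands for 3 motifs. These were TGANTCAGC, the joint site of a CNC factor and a small MAF, TGACNNNGC, the core of the antioxidant response element, and TGCTGA, the TGC flank of a MAF site joined to the TGA of its core. A site can match both of the first pair. The peak is covered in full by the promoter window of Gm46822, a long noncoding RNA gene on the opposite strand, and that window holds 1 match of TGACNNNGC, whose centre lay 7 bp from the midpoint of the peak. It lies 95 to 103 bp downstream of the Gclm start. The promoter window of Gclm itself holds a further match, 126 to 134 bp upstream of the start, which lies outside the peak and 222 bp from its midpoint. Both are printed on the Gclm strand, where the motif reads in reverse complement, with the 9 matching bases in capitals.
Gclm match inside the peak, chr3:122245642-122245671: tgaggtttctGCTTAGTCAttgtcttccag
Gclm match upstream of the peak, chr3:122245413-122245442: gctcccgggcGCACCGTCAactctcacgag

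This core is frequent, and 12.4% of the 32851 promoter windows in the RefSeq table hold it. The share was 18.6% of the 2964 windows that a listed peak touched and 11.8% of the other 29887. For TGCTGA the shares were 24.1% of the windows with a peak and 19% of those without, and for TGANTCAGC they were 2.87% and 1.02%. A match is a description of the letters and does not show which bases are bound. The RefSeq table held 14 promoter windows for 8 of the 10 glutathione genes, and Gclc and Gsr had none. Of the 14, none held TGANTCAGC, 4 held TGACNNNGC (those of Gclm and 3 starts of Ggt1) and 3 held TGCTGA (those of Chac1 and 2 starts of Gpx4). The windows of those 2 Gpx4 starts overlap, so the same match may be counted in both.

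The tallest peak in the Gclm window lay away from the gene. It stood 21572 bp beyond the downstream end at chr3:122288687-122288887 and 3516 bp outside Dnttip2, the nearest protein-coding gene. It held 319 BLRP-MafG tags and 3 control tags, a normalized tag count of 156 (140 to 174), with a ratio of 89.7 (30.4 to 437). Of all listed peaks, 98.3% were lower. A peak of 45.6 (36.8 to 55.8) stood 34267 bp beyond the gene at chr3:122301382-122301582, with 93 BLRP-MafG tags and 7 control tags, the highest control count of the 65. Its ratio was 11.2 (5.23 to 28.6), close to the limit of the peak caller. The other 7 peaks outside Gclm ran from 5.39 to 19.1, and the lowest of them touched the promoter of Dnttip2.

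Gss held the tallest peak inside any of the 10 genes. It encodes glutathione synthetase, which adds glycine in the second step of synthesis, and lies on the minus strand at chr2:155563181-155592810. The peak, at chr2:155569558-155569758, lay 23152 bp downstream of the start and 6477 bp inside the opposite end. It held 122 BLRP-MafG tags and 3 control tags, a normalized tag count of 59.8 (49.6 to 71.4), with a ratio of 34.3 (11.5 to 169). The highest peak inside Gss was above that of 90.3% of all protein-coding genes, genes with none inside counted as 0. A second of 18.1 (12.8 to 25) lay at chr2:155585555-155585755, with 37 BLRP-MafG tags and 0 control tags. Near the start, peaks of 8.33 and 9.31 lay 944 bp and 1669 bp downstream of it, and their intervals overlapped. A peak of 5.88 lay 11692 bp inside the downstream end. Outside the gene, 5 peaks ran from 5.88 to 25.5. On the upstream side, peaks of 10.3 and 5.88 lay inside Myh7b, and on the downstream side peaks of 6.37 and 6.86 lay inside Acss2.

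The highest of those 5 is shown in full because it lies wholly within a promoter window. It stood 45238 bp from Gss at chr2:155517843-155518043 and its midpoint lay 100 bp upstream of the start of Acss2, an acetyl-CoA synthetase gene. It held 52 BLRP-MafG tags and 0 control tags, a normalized tag count of 25.5 (19 to 33.4), 14.6-fold higher than the control against the floor of 3 tags. The interval of its ratio began at 11.5. The 201 bases of the peak are given on the plus strand, which is that of Acss2. TGCTGA and TGACNNNGC overlap there in a stretch of 12 bases, given in capitals. It lies 99 to 110 bp upstream of the start and takes in the midpoint of the peak.
Acss2 promoter peak, chr2:155517843-155518043: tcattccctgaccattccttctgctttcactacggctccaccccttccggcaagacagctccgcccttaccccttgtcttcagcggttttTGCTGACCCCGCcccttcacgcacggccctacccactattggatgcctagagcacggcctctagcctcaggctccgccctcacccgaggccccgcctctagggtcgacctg

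The same motifs overlapping as in the Acss2 peak were sought after that stretch was seen, with any base at the core's free positions. This joined pattern, which is looser than the stretch itself, occurs in 97 (0.295%) of all promoter windows. It was in 29 (0.978%) of the windows that a peak touched and in 68 (0.228%) of the others. Of the 65 peaks, 8 (12.3%) touched a promoter window of any gene, against 4.54% of all peaks inside or within 50 kb of any protein-coding gene. Those 8 peaks touched 10 windows, of which 9 belong to neighbours of the glutathione genes. Besides Acss2 and Gm46822 these were Dnttip2, Gucd1, Nicn1, Amt, Tcta, Rhoa and Polr2e.

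Slc7a11 stood at the low end. It encodes xCT, the antiporter that brings in cystine, the source of cysteine for synthesis, and is the longest of the 10 genes, at 134152 bp. That span, chr3:50364936-50499087, runs upstream past the listed start at chr3:50443613 on the minus strand. The length and the density below therefore take in sequence upstream of that start. The window of Slc7a11 held 2 peaks, the fewest of the 10, or 0.854 per 100 kb, a density above that of 9.1% of all protein-coding genes. One, at chr3:50407747-50407947, held 18 BLRP-MafG tags and 1 control tag, a normalized tag count of 8.82 (5.23 to 13.9), with a ratio of 15.2 (2.4 to 633). The other, at chr3:50439509-50439709, lay 4004 bp downstream of the listed start and held 12 BLRP-MafG tags and 0 control tags, a count of 5.88 (3.04 to 10.3). Both lay inside the gene, and none lay in its flanks of 50 kb. In the authors' deposited table these low peaks were 21.5 and 13.4 times their surroundings of 10 kb.

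Gsr, the gene of glutathione reductase, had 6 peaks, 3 of them inside. The highest lay 15764 bp inside the low-coordinate end at chr8:33668902-33669102. It held 94 BLRP-MafG tags and 3 control tags, a normalized tag count of 46.1 (37.2 to 56.4), with a ratio of 26.4 (8.77 to 130). A low peak of 9.8 (5.99 to 15.1) lay 227 bp inside the same end at chr8:33653365-33653565, with 20 BLRP-MafG tags and 0 control tags. The third, of 12.3, lay 10491 bp inside the other end. Outside the gene, a peak of 41.7 (33.3 to 51.5) stood 23606 bp away at chr8:33721668-33721868, nearer to Gtf2e2, with 85 BLRP-MafG tags and 0 control tags. It was 23.9-fold higher against the floor, and the interval of its ratio began at 19. One of 28.9 (22 to 37.3) lay inside Ubxn8, 14700 bp from Gsr, and one of 6.86 lay 107 bp from Gtf2e2. The intervals of the 46.1 and 41.7 peaks overlapped.

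**Figure D2:**
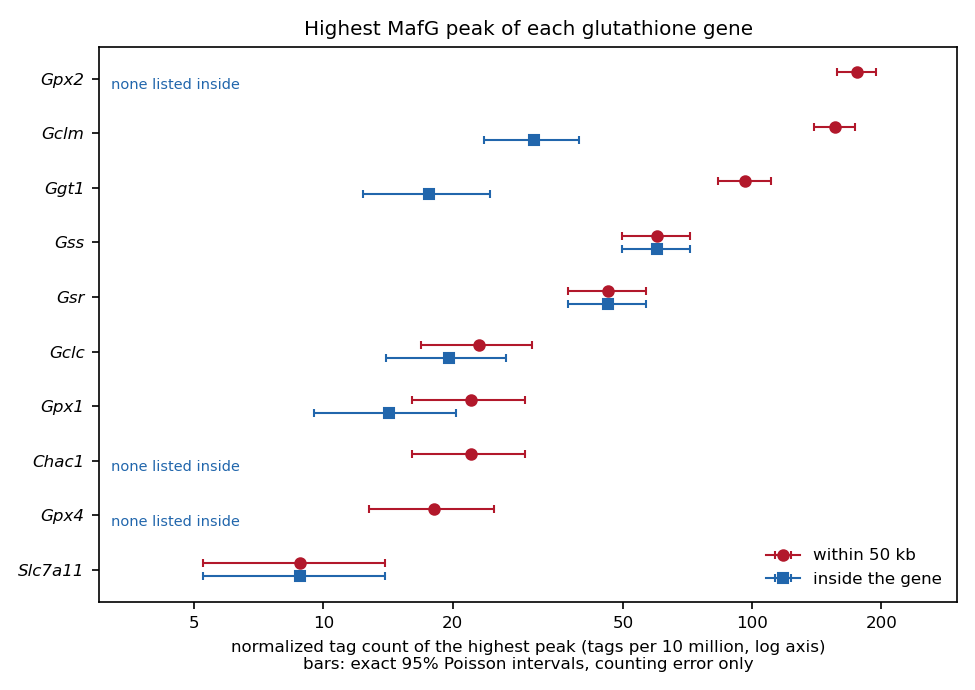
Normalized tag count of the highest listed peak within 50 kb (circles) and inside the gene (squares) for each of the 10 genes, on a log axis, with exact 95% Poisson intervals that cover counting error only. For Gss, Gsr and Slc7a11 the highest peak of the window lies inside the gene, whereas for Gclm and Ggt1 it is several times taller than any inside; Gpx2, Gpx4 and Chac1 have no listed peak inside.

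Of the breakdown genes, Ggt1 had its tallest peak inside a neighbouring paralogue, Ggt5. It encodes gamma-glutamyltransferase, the cell surface enzyme that opens extracellular glutathione for reuse of its amino acids. A single peak lay inside, at chr10:75576853-75577053 and 3458 bp downstream of the nearest of its 4 listed starts. It held 36 BLRP-MafG tags and 1 control tag, a normalized tag count of 17.6 (12.4 to 24.4), with a ratio of 30.4 (5.11 to 1232). The tallest peak in the window stood 25639 bp beyond the downstream end at chr10:75611732-75611932, inside Ggt5. It held 196 BLRP-MafG tags and 4 control tags, a count of 96 (83.1 to 110), with a ratio of 41.3 (15.9 to 153). A peak of 24 (17.8 to 31.7) also lay inside Ggt5, and its interval overlapped that of the peak inside Ggt1. The 2 on the upstream side, of 11.8 and 14.2, lay inside Snrpd3.

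Chac1 encodes a cytosolic gamma-glutamylcyclotransferase that degrades glutathione. It had 3 peaks, with none inside its 3085 bp. The nearest lay 1009 bp beyond its downstream end at chr2:119355235-119355435, with 27 BLRP-MafG tags and 1 control tag, a normalized tag count of 13.2 (8.72 to 19.3), with a ratio of 22.8 (3.75 to 932). The other 2 lay about as far away on either side. One of 22.1 (16.1 to 29.5) stood 29209 bp upstream, nearer to Dll4, and one of 16.2 (11.1 to 22.7) stood 30661 bp downstream, inside Ino80, with 0 control tags at both. All 3 intervals overlapped.

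The 3 peroxidase genes differed in how close their peaks lay. Gpx1, the gene of the cytosolic selenoenzyme that reduces hydrogen peroxide, had 9 peaks, and 2 of them lay at its 3′ end. One, at chr9:108340230-108340430, was centred 12 bp inside that end, with 29 BLRP-MafG tags and 1 control tag, a normalized tag count of 14.2 (9.52 to 20.4), with a ratio of 24.5 (4.06 to 999). The other, at chr9:108342251-108342451, stood 2009 bp beyond it, with 45 BLRP-MafG tags and 1 control tag, a count of 22.1 (16.1 to 29.5), with a ratio of 38 (6.47 to 1532). Their intervals overlapped. The remaining 7 peaks, from 6.86 to 18.6, lay at least 21368 bp away. Downstream, peaks of 18.6 and 12.7 lay inside Usp4. Upstream, peaks of 6.86 and 7.35 were nearest to Nicn1, one of 11.3 lay inside Amt, and peaks of 13.7 and 6.86 lay inside Rhoa. The window of Gpx1 held 8.89 peaks per 100 kb, more than that of 98% of genes, in a stretch dense with other genes.

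Gpx2, the gene of the gastrointestinal peroxidase, had the tallest peak of all 65 in its window, but at a distance. It stood 43912 bp upstream of the gene at chr12:76839366-76839566, inside Fntb, with 358 BLRP-MafG tags and 0 control tags. Its normalized tag count was 175 (158 to 195), 101-fold higher than the control against the floor of 3 tags, and the interval of its ratio began at 81.4. The peak ranked 962 among the 68763 peaks. The nearest to Gpx2 was low, a peak of 5.88 (3.04 to 10.3) that lay 1971 bp beyond its downstream end at chr12:76790264-76790464, with 12 BLRP-MafG tags and 0 control tags. Of the other 3 peaks, all on the downstream side and nearer to Churc1, the highest was 46.1 (37.2 to 56.4), with 94 BLRP-MafG tags and 4 control tags, and the others were 11.3 and 6.86.

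Gpx4 encodes the peroxidase that reduces lipid hydroperoxides in membranes and guards cells against ferroptosis. It had 3 peaks, none inside the gene and none nearer to it than to a neighbour. The closest stood 7341 bp upstream at chr10:80039725-80039925, in the promoter of Polr2e, with 15 BLRP-MafG tags and 1 control tag, a normalized tag count of 7.35 (4.11 to 12.1), with a ratio of 12.7 (1.95 to 533). A peak of 18.1 (12.8 to 25), the tallest, and one of 12.3 (7.93 to 18.1) lay inside Sbno2, 15288 bp and 42372 bp downstream. Their intervals overlapped.

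**Figure D3:**
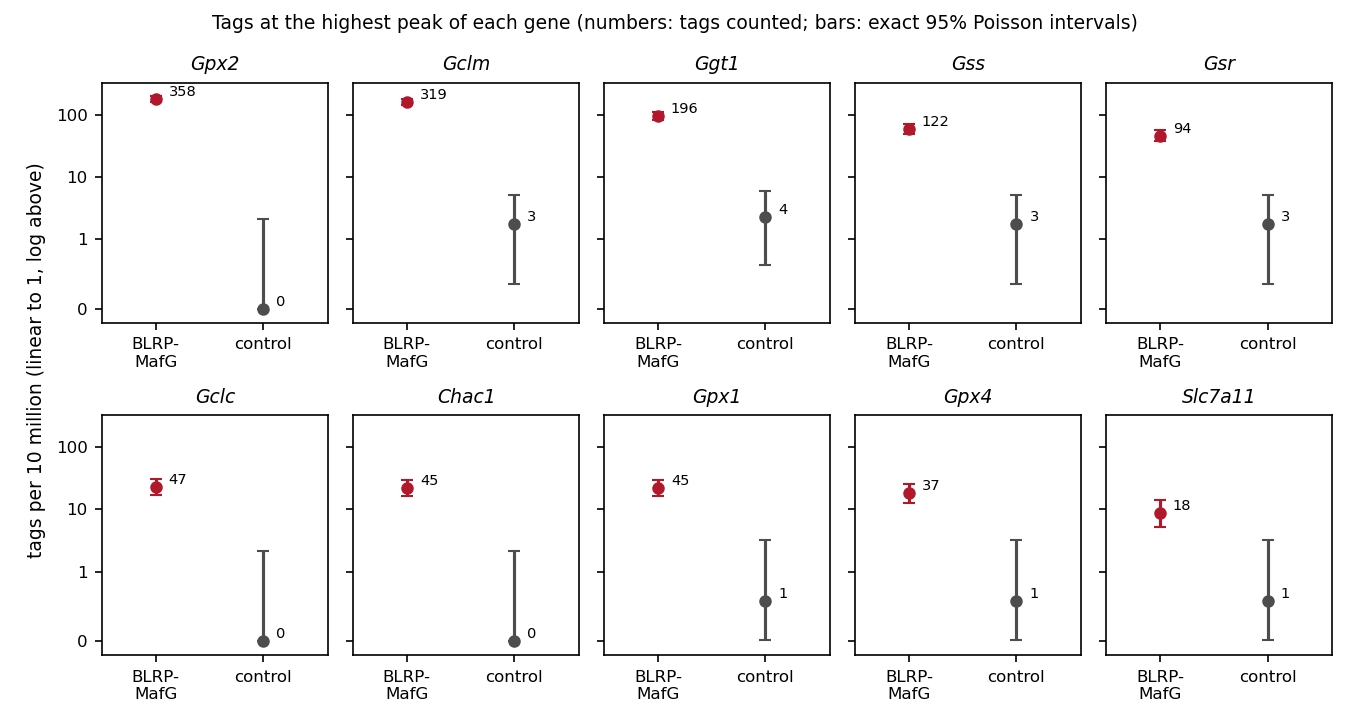
Tags at the highest peak in the window of each gene, in BLRP-MafG livers (left in each panel) and control livers (right), per 10000000 tags, on an axis that is linear up to 1 and logarithmic above. Printed numbers are tags counted and bars are exact 95% Poisson intervals; from Gpx2 (358 against 0 tags) to Slc7a11 (18 against 1 tag) the 2 intervals do not overlap, which the choice of listed peaks brings about.

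Set in order by the highest peak of the window, the genes ran Gpx2, Gclm, Ggt1, Gss, Gsr, Gclc, Chac1 and Gpx1 level at 22.1, Gpx4 and Slc7a11. Of the 9 pairs of neighbours in that order, 6 had overlapping intervals. The 3 pairs whose intervals did not overlap were Gclm and Ggt1, Ggt1 and Gss, and Gsr and Gclc. Overlapping intervals do not show that heights are equal, and no difference between genes was tested. The median of the highest peaks was 34.5, against 33.8 over all protein-coding genes with genes lacking a peak at 0, and 5 of the 10 genes lay above that median. The median of the 10 genes was 18.9 with a flank of 10 kb and 19.9 when a peak counted only for its nearest protein-coding gene; the same was not computed over all genes. Gpx2 and Gclm stood above 93.1% and 91.6% of all genes, and Slc7a11 above 11.7%. Counting only peaks inside the gene, the median was 15.9, against 5.88 over all genes, with 6 of the 10 genes longer than 20 kb against a median length of 17169 bp over all genes. The list has a single value per collection, so no likeness in pattern across samples could be computed between genes.

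**Figure D4:**
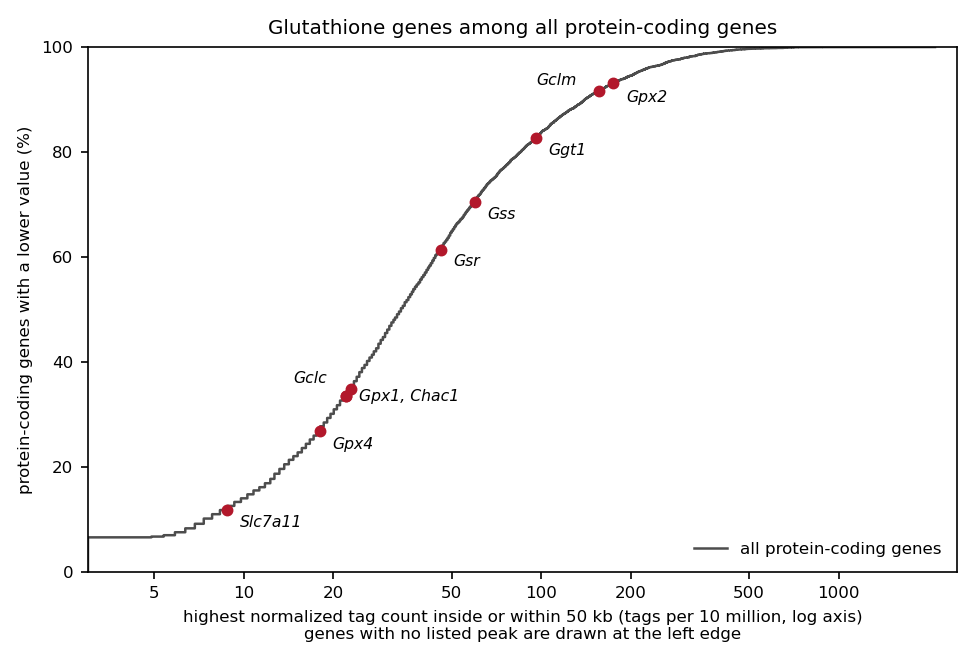
Highest normalized tag count inside or within 50 kb of each gene (x, log axis) against the percentage of protein-coding genes with a lower value (y). The line is all 21887 protein-coding genes and the points are the 10 glutathione genes, which spread from Slc7a11 at 11.7% to Gpx2 at 93.1%.

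The wider glutathione pathway was read from a further list of 26 genes, among them other peroxidases and gamma-glutamyltransferases, the glutaredoxins, the glyoxalases Glo1 and Hagh, transporters, and enzymes of cysteine supply and of glutathione breakdown. All 26 had a peak inside or within 50 kb, against 93.5% of all genes, 24 had one with a flank of 10 kb, against 74.5%, 17 had one inside, against 50.5%, and 9 had one within 1 kb of an end, against 24.5%. The median of their highest peaks was 43.1, against 34.5 for the 10 genes above and 33.8 for all protein-coding genes. The 26 genes held 148 distinct peaks in all, 6 of which also lay in the windows of the 10 genes. Genes of the wider list could share a peak, and Gpx5 and Gpx6 both took their value of 43.1 from the same peak.

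The tallest peak of the wider list stood beside Ggct, the gene of gamma-glutamylcyclotransferase, which clears gamma-glutamyl amino acids. It lay 21440 bp outside the gene at chr6:55014300-55014500, and Ggct was the nearest protein-coding gene. It held 981 BLRP-MafG tags and 3 control tags, a normalized tag count of 481 (451 to 512), with a ratio of 276 (94.1 to 1340). The next 5, all of them nearer to another gene, were 208 for Ggt5, 195 for Ggt6, 137 for Glo1, 111 for Oplah and 106 for Gpx8. They lay from 18570 bp (Glo1) to 47057 bp (Ggt6) outside the gene. Slc3a2, picked out after its value was seen because its product pairs with xCT, held a peak of 32.8 (25.4 to 41.7) inside the gene at chr19:8721474-8721674, with 67 BLRP-MafG tags and 0 control tags. That interval lay above those of both peaks of Slc7a11.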

How the data were processed

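The submitters' processing notes name Bowtie2, HOMER and the mm10 build. Per the file headers, peaks of 200 bp were found on 1 BLRP-MafG tag collection over 1 control collection, with a 10-fold excess and a Poisson p of 1e-06 over control and a 4-fold excess over 10 kb of surroundings. Whether a collection joined both libraries of a group is not given in the sources used here. The depth was 20406492 BLRP-MafG tags, and the deposited column of BLRP-MafG tags scaled to the control total implies 1.72e+07 control tags.

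The BLRP-MafG signal was used as deposited, scaled by the authors to 10000000 tags. Rescaled to the full depth, each value was whole to 0.102 tags or better, and those tags gave the exact 95% Poisson and conditional binomial intervals. The deposited control signal writes 0.5 for 0 tags, taken as 0 here. The deposited ratio (fold) columns served for the surroundings and for 1 alternative. The deposited p-values and the deposited peak score were not used further. Intervals and the floor of 3 tags cover counting error only, and the floor covers that of the control alone. Per the file headers, at most 1 tag per base was considered.

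Genes and promoter sequences came from RefSeq tables of GRCm38.p6. A peak counted by its midpoint. Positions are printed as deposited. The members and lists were chosen with earlier results of these data known. The genes and peaks to be named were all 10 members with every peak of theirs (beyond 10 peaks, the 3 highest in full), the 6 genes of the wider list with the highest peaks, and neighbours nearer to a named peak. Counting and intervals were tested on simulated data. Python 3.11.15, pandas 2.3.3 and scipy 1.17.1 were used.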

Additional observations from a re-analysis of the deposited data

How the results depend on the processing

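The number of peaks followed the window and the threshold: against 65 as reported, there were 28 with a flank of 10 kb, 120 with 100 kb, 42 at 20-fold or more over control, 35 at or above the median height of the list, and 29 when a peak counted only for its nearest protein-coding gene. Members with a peak within 1 kb of an end numbered 2 at or above that median height, against 4. Members with a peak (9 or 10) and with a peak inside (6 or 7) stayed within 1.5 times under every alternative run, as did the wider list (22 to 26 of 26). Highest peaks depended on the window and on how peaks were assigned: the new height lay outside the 95% interval of the reported one in 5 members with 10 kb (Gclm, Ggt1, Gpx2, Gpx4 and Chac1), in 5 with 100 kb (Gclm, Ggt1, Gpx1, Gpx4 and Chac1) and in 5 by nearest gene. With 10 kb the interval of Chac1, at 13.2 (8.72 to 19.3), still overlapped that of its reported 22.1 (16.1 to 29.5). By nearest gene the heights were 30.9 for Gclm, 17.6 for Ggt1, 5.88 for Gpx2, 13.2 for Chac1 and 0 for Gpx4, which was left with no peak. The median ratio to control at the highest peaks was 32.8, and 38.8 to 39.6 under the other scaling and the other value for 0 control tags. Counting error limits any order among the low peaks, such as the 12 and 18 tags at Slc7a11. No paired analysis was possible because the list holds no value per library, and for the same reason no replicate could be left out.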

Other observations

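The ring from 50 to 100 kb around the glutathione genes held further peaks, some of them tall. Between 50 and 100 kb from Gclm, the highest of 10 peaks reached 400 (373 to 428) at chr3:122360049-122360249, 92934 bp outside the gene, with 6 control tags, against 156 (140 to 174) within 50 kb. Beyond Ggt1 it reached 208 (188 to 229) at the peak given above for Ggt5, 71750 bp outside Ggt1, against 96 (83.1 to 110) within 50 kb. Beyond Gpx2 it reached 180 (162 to 200), 57044 bp outside, an interval that overlapped that of the 175 (158 to 195) within 50 kb. The highest in that ring was low for Slc7a11, at 6.37 (3.39 to 10.9), and for Gsr, at 8.82 (5.23 to 13.9).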
